A study of Mus musculus with 10 samples.

Results

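The genes described here are 10 members of the YAP and TAZ pathway among the 55536 genes counted in mouse bladder RNA. They are the secreted matrix proteins Ccn1 and Ccn2, the nuclear ankyrin-repeat cofactor Ankrd1, the angiomotin-like proteins Amotl1 and Amotl2, the LIM-domain protein Ajuba, the coactivators Yap1 and Wwtr1 (the gene of TAZ), the kinase Lats2 and the DNA-binding factor Tead1. The members were chosen by the measured counts of Ccn1, which were known to be far higher in the OMD knockout than in wild type, so the comparison of these groups is given for the members as a description, and no test of them is read from it. The choice named no level in the PRELP knockout.

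In the Hippo pathway, the LATS kinases phosphorylate YAP and TAZ and hold them in the cytoplasm. When this restraint is low, YAP and TAZ enter the nucleus, bind TEAD factors and switch on genes such as Ccn1, Ccn2, Ankrd1 and Amotl2. The angiomotin proteins bind YAP and TAZ and restrain them, and AJUBA binds and inhibits the LATS kinases. Ccn1 and Ccn2 also answer to serum response factor and to many stimuli of the immediate early response, and the pathway senses cell density, adhesion and matrix stiffness.

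RNA of C57BL/6 mouse bladder was sequenced in 10 libraries, 4 of wild-type mice (WT), 3 of mice with genotype OMD-/- and 3 of mice whose PRELP knockout genotype is spelled PRLEP-/- in the labels. These group sizes are those of the labels. For its bladder RNA sequencing the study gives fewer WT and more OMD-/- mice, and the same number of PRELP-/- mice. Osteomodulin (OMD) and PRELP are small leucine-rich proteoglycans of the extracellular matrix. Both knockouts are constitutive, with β-galactosidase placed in the locus under its own promoter, so every cell type lacked the gene throughout life. The labels call the material homogenised bladder tissue, whereas the study speaks of isolated bladder epithelia, and the age and sex of the animals were not given in the sources used here. In such bulk RNA, a change in the share of a cell type and a change of RNA per cell cannot be told apart.

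Total counts were 20391437 to 46269079 in WT, 22160642 to 23724163 in OMD-/- and 21590156 to 25905707 in PRELP-/-. The targeted genes were checked first. Prelp had 213 to 316 CPM (counts scaled to the size of the library with TMM factors) in WT, 782 to 829 in OMD-/- and 1.86 to 4.09 in PRELP-/-. Omd had 0, 1, 8 and 12 counts in WT replicates 1 to 4, 5 to 7 in PRELP-/- and 0 in the 3 OMD-/- libraries. At the 0.276 to 0.526 CPM of WT replicates 3 and 4 and PRELP-/-, the library labelled WT replicate 1 would hold 13.9 to 26.5 reads and that labelled WT replicate 2 would hold 6.33 to 12.1, so Omd goes against the WT label of replicate 1 and is below that range in replicate 2. Their Prelp, at 316 and 283 CPM, was above the 252 and 213 CPM of WT replicates 3 and 4 and below the 782 to 829 CPM of OMD-/-. Values are therefore also given against WT replicates 3 and 4 alone and against the libraries labelled WT replicates 1 and 2 alone. The libraries also differed in ways the groups do not explain. Summed CPM of 4 Y chromosome genes was 188 and 163 in WT replicates 1 and 2 but 0 and 0.044 in replicates 3 and 4, 117, 19.0 and 18.7 in PRELP-/- and 18.4, 0.81 and 0.73 in OMD-/-. WT replicates 1 and 2, WT replicates 3 and 4, OMD-/- replicates 2 and 3 and PRELP-/- replicates 2 and 3 lay close together, with chi-square per degree of freedom of 2.98 to 10.8 against 22.4 to 203 for the other pairs within a group, and PRELP-/- replicate 1 stood farthest apart.

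Sequence before the start sites was read from RefSeq windows that hold 250 bases before and 50 after a gene's start (build GRCm38.p6), and 8 of the 10 members had at least 1 such window. They are shown because TEAD factors recognise GGAATG, which on the other strand reads CATTCC. This motif, searched on both strands, was in a window of 7 of the 8 members and in 14.7% of all 32851 windows. In Ccn1, on the minus strand at chr3:145650023-145650148, 1 copy lay 98 to 103 bases before the start and is in capitals in the stretch printed here, 5′ to 3′ along the gene.
Ccn1: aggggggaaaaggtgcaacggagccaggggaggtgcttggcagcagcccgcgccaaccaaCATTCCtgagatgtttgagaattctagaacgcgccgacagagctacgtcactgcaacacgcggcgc

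For comparison, the motif in capitals with 12 bases to each side is given for another member that was high in OMD-/- and for 3 members whose levels moved little, again along the gene's strand. In Amotl2 (plus strand, chr9:102717727-102717756) it lay 60 to 65 bases before the RefSeq start, inside a stretch that GENCODE places in an untranslated first exon of an earlier start. In Ajuba (minus strand) it was found at 2 places, chr14:54577830-54577859 and chr14:54577808-54577837. In Yap1 (minus strand, chr9:8004720-8004749) it lay 136 to 141 bases before the start. In Wwtr1 it was at chr3:57576029-57576058 on the minus strand.
Amotl2: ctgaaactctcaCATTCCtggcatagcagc
Ajuba, first place: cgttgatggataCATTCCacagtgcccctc
Ajuba, second place: tgcccctccgcgCATTCCaactgtaaacaa
Yap1: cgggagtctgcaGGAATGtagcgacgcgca
Wwtr1: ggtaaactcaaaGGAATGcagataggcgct

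The same 6 letters were therefore present before members with very different levels and changes. Ankrd1 had 2 copies before its start, Lats2 had 1 copy just after the start in 1 of its 2 windows, and Amotl1 had none in its window. The CArG box of serum response factor, found in 1.63% of all windows, was in 0 of the 10 member windows, and the AP-1 motif TGANTCA, found in 7.81% of all windows, was in 0 of 10 as well. No match says only that these letters are not in this window, and a match is no evidence of binding.

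The target genes came first in size. Ccn1 (ENSMUSG00000028195, chr3:145646976-145649981, minus strand, GRCm38) encodes a secreted matrix protein that binds integrins. Its level was 2.86, 2.18, 1.01 and 0.83 CPM in the libraries labelled WT replicates 1 to 4 and 43.7, 106 and 105 CPM in OMD-/- replicates 1 to 3. These are 19 to 144 reads in WT against 915 to 2492 in OMD-/-. The groups lay far apart, the lowest OMD-/- library being 15.3-fold above the highest WT library, and OMD-/- replicate 1 held less than either of the other two. Mean levels were 1.72 ± 0.97 CPM (SD, n = 4) and 85.1 ± 35.9 CPM (SD, n = 3), a ratio of 49.5, and the fitted log2 fold change was 5.51. It was 6.50 against WT replicates 3 and 4 alone and 5.02 against the libraries labelled WT replicates 1 and 2 alone.

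Ccn2 (ENSMUSG00000019997, chr10:24595442-24598683, plus strand), the connective tissue growth factor gene, encodes a matrix protein of the same family. It had 7.39, 6.58, 3.90 and 4.04 CPM in WT and 13.4, 26.5 and 26.9 CPM in OMD-/-. All OMD-/- libraries were above all WT libraries, and again replicate 1 was the lowest of the knockout. The means were 5.48 ± 1.78 CPM (SD, n = 4) and 22.3 ± 7.66 CPM (SD, n = 3), with a fitted log2 fold change of 1.99, which was 2.46 against WT replicates 3 and 4 alone and 1.65 against those labelled replicates 1 and 2. An opposite-strand transcript, Gm15270, covers 23.2% of the exon bases of Ccn2 but had a mean of only 0.161 CPM.

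Amotl2 (ENSMUSG00000032531, chr9:102716672-102733418, plus strand) encodes an angiomotin family protein that is both a target and a restraint of YAP. Its level was 17.6, 17.1, 6.57 and 8.82 CPM in WT and 46.8, 81.8 and 77.8 CPM in OMD-/-, so the groups did not overlap. The libraries labelled WT replicates 1 and 2 were above WT replicates 3 and 4, as they were for Ccn1 and Ccn2. The means were 12.5 ± 5.67 CPM (SD, n = 4) and 68.8 ± 19.2 CPM (SD, n = 3), with a fitted log2 fold change of 2.43. This was 3.13 against WT replicates 3 and 4 alone and 1.97 against those labelled replicates 1 and 2.

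Ankrd1 (chr19:36111961-36120099, minus strand), a widely used YAP target that is abundant in stressed muscle, was at the limit of detection. It had 0, 2, 1 and 4 reads in WT, 2, 2 and 6 reads in OMD-/- and 0, 2 and 0 reads in PRELP-/-. With 3 counts as the floor, the groups cannot be told apart, and Ankrd1 did not pass the filter on low counts in any comparison. That leaves 9 of the 10 members in the fits, and the floor covers counting error only.

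**Figure D1:**
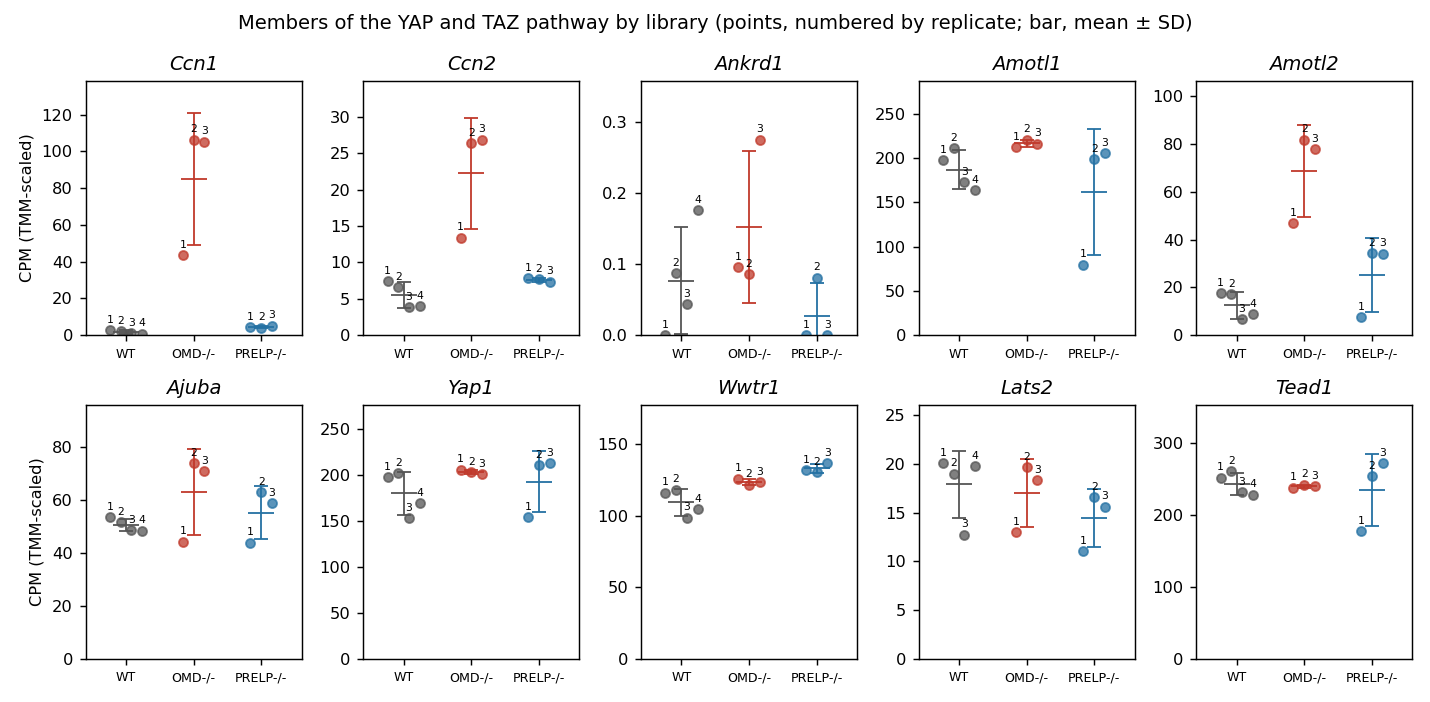
Level of each member in every library, in CPM scaled by TMM factors on linear axes from 0, for WT (grey, n = 4), OMD-/- (red, n = 3) and PRELP-/- (blue, n = 3), with replicate numbers and the mean ± SD. Ccn1, Ccn2 and Amotl2 are higher in all 3 OMD-/- libraries than in any WT library, Ankrd1 stays below 0.3 CPM, and PRELP-/- replicate 1 is the lowest of its group for Amotl1, Amotl2, Ajuba, Yap1, Lats2 and Tead1.

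The genes that carry and restrain the signal changed far less between OMD-/- and WT. For the other 6 members fitted, log2 fold changes were between -0.09 and 0.30. Yap1 (chr9:7931999-8004596) had 153 to 202 CPM in WT and 201 to 206 CPM in OMD-/-, and its partner Wwtr1 (chr3:57455649-57575910) had 98.8 to 118 CPM and 122 to 126 CPM. Tead1 (chr7:112679318-112906807), through which both reach DNA, had 228 to 261 CPM in WT and 238 to 242 CPM in OMD-/-. The Yap1 and Tead1 ranges overlapped, while the 3 OMD-/- libraries lay above the WT libraries for Wwtr1.

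Among the other regulators, Amotl1 (chr9:14541966-14645056) had 164 to 212 CPM in WT and 213 to 221 CPM in OMD-/-, a separation of the groups by less than 1%. Lats2 (chr14:57689662-57758388), the kinase that phosphorylates YAP, had 12.8 to 20.1 CPM in WT and 13.0 to 19.7 CPM in OMD-/-. Ajuba (chr14:54567472-54577558) had 48.3 to 53.3 CPM in WT, and 44.2, 73.7 and 70.7 CPM in OMD-/-, so replicate 1 lay below WT and the other libraries above it. Without OMD-/- replicate 1 the log2 fold change of Ajuba was 0.51 in place of 0.30. Of the exon bases of Lats2, 42.4% are shared with Gm49361 on the same strand, which had 0 counts, so the Lats2 level may be understated.

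In the fit over all genes of OMD-/- against WT, 3 of the 9 members fitted (Ccn1, Ccn2 and Amotl2) lay past the threshold of 0.05 on the adjusted p, where 29.4% of all 16647 genes tested did so, 14.3% as higher and 15.1% as lower. All 3 OMD-/- libraries were above all 4 WT libraries for 5 of 9 members (Ccn1, Ccn2, Amotl1, Amotl2 and Wwtr1), where 20.5% of all genes were, and for 0 of 9 were all below, where 18.5% of all genes were. Since this comparison chose the members, these counts are no test of them and nothing is read from them. When libraries that lay close together were summed before the fit, 0 of the 9 members lay past the threshold, at log2 fold changes of 5.33 for Ccn1, 1.85 for Ccn2 and 2.32 for Amotl2. The small differences also depended on scaling. TMM factors were 1.07 to 1.12 in WT and 0.925 to 0.988 in OMD-/-, so that library totals alone lower the log2 difference of OMD-/- by 0.16, and the mean of Wwtr1 was then 120 CPM in both groups.

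Divided by exon length, the members can be set against each other. In WT, Wwtr1 had 22.9 ± 1.96 CPM per kb (SD, n = 4), followed by Yap1 with 19.5 ± 2.53, Amotl1 with 18.6 ± 2.18, Tead1 with 17.9 ± 1.14 and Ajuba with 13.8 ± 0.649. The ranges of the first 4 in this order overlapped from neighbour to neighbour, and Ajuba lay below them. Lats2 with 2.57, Amotl2 with 1.99 and Ccn2 with 1.91 CPM per kb overlapped in the same way, and so did Ccn2 and Ccn1 with 0.852. In OMD-/- the lowest of the 9 detected members in WT had the highest mean level. Ccn1 reached 42.2 ± 17.8 CPM per kb (SD, n = 3), above Wwtr1 with 25.9, although OMD-/- replicate 1, with 21.6, was within the range of the regulators. Amotl2 with 10.9 and Ccn2 with 7.78 CPM per kb then lay between the regulators and Lats2 with 2.44. In PRELP-/- the order was again led by Wwtr1 with 27.9 CPM per kb, and Ccn1 with 2.23 lay next to Lats2 with 2.07, their ranges overlapping.

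**Figure D2:**
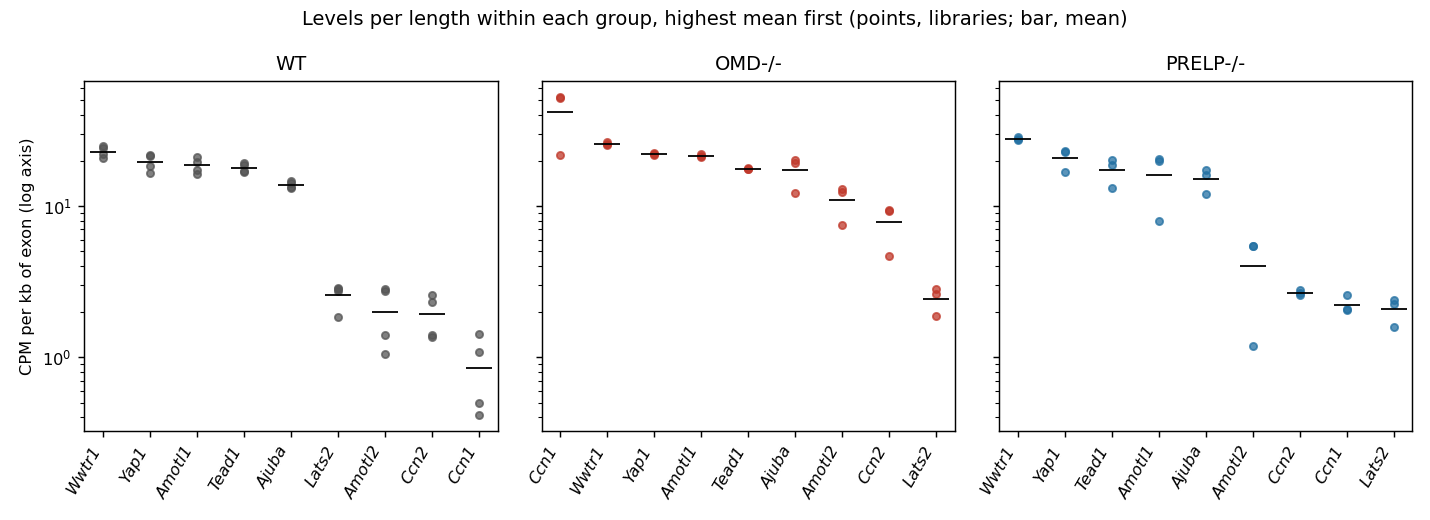
CPM per kb of exon on a log axis for the 9 members above the detection limit, ordered within each group by the mean (bar), with a point for every library. Ccn1 moves from the last place in WT (0.852 CPM per kb) to the first in OMD-/- (42.2 CPM per kb), while Wwtr1, Yap1, Amotl1, Tead1 and Ajuba keep means between 13.8 and 27.9 CPM per kb in all 3 groups.

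Whether loss of the other proteoglycan had a like effect on these genes was asked by comparing PRELP-/- with WT, in which the WT libraries are those of the first comparison. Their Ccn1 levels were part of the choice of members, so p-values of Ccn1 against WT are not independent of that choice. Ccn1 had 4.20, 4.13 and 5.17 CPM in the 3 PRELP-/- libraries, which was above every WT library but far below every OMD-/- library. The mean was 4.50 ± 0.58 CPM (SD, n = 3), 2.61-fold that of WT. The log2 fold change was 1.32 (SE 0.41, 95% interval 0.40 to 2.25) with an adjusted p of 0.0861 in edgeR's quasi-likelihood test, so Ccn1 did not pass. The value rested on the WT libraries used. Against those labelled WT replicates 1 and 2, which had reads of Y chromosome genes, the log2 fold change was 0.80 (adjusted p = 0.258 in edgeR), and against WT replicates 3 and 4 it was 2.26 (adjusted p = 0.0209 in edgeR). These subsets were set after the data were seen, and WT replicates 3 and 4 had the lowest Ccn1 of all libraries. The p-value against them is therefore no independent test.

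Ccn2 was 7.90, 7.65 and 7.35 CPM in PRELP-/-, and the lowest of these lay just below the highest WT library with 7.39. Its log2 fold change was 0.44 (SE 0.26, 95% interval -0.14 to 1.03, adjusted p = 0.300 in edgeR), which was 0.92 against WT replicates 3 and 4 alone and 0.10 against those labelled replicates 1 and 2. Amotl2 was 7.40 CPM in PRELP-/- replicate 1, within the WT range, and 34.3 and 34.1 CPM in replicates 2 and 3, above it. The fold change of Amotl2 rested on these libraries, with a log2 value of 0.98 (SE 0.52, 95% interval -0.21 to 2.16, adjusted p = 0.267 in edgeR) over all 3. Without PRELP-/- replicate 1 it was 1.42 with an adjusted p of 0.0193, and it was 1.69 against WT replicates 3 and 4 alone and 0.51 against those labelled replicates 1 and 2.

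Of the coactivators, Wwtr1 was 132, 131 and 137 CPM in PRELP-/-, above all WT libraries, with a log2 fold change of 0.26 (95% interval -0.03 to 0.54, adjusted p = 0.230 in edgeR). Scaled by library totals alone, its mean was 122 CPM in PRELP-/- and 120 CPM in WT. Yap1 was 154 CPM in PRELP-/- replicate 1 and 211 and 213 CPM in the others, with a log2 fold change of 0.07 (95% interval -0.32 to 0.45). Tead1 was 177, 254 and 272 CPM, with a log2 fold change of -0.08 (95% interval -0.47 to 0.31).

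Amotl1 was 79.6 CPM in PRELP-/- replicate 1, less than in any other of the 10 libraries, and 199 and 206 CPM in replicates 2 and 3. Ajuba was 43.8 to 62.7 CPM and Lats2 11.1 to 16.6 CPM in PRELP-/-, both overlapping WT. In all, 0 of the 9 members passed in edgeR, where 7.29% of the 16581 genes tested passed, 1.40% as higher and 5.89% as lower. An unadjusted p under 0.05 in edgeR was found for 1 member and for 4426 of the 16581 genes. DESeq2 passed 1 member, Ccn1, with an adjusted p of 0.0179, and limma-voom with quality weights, which gives less weight to libraries that stand apart, passed 6. Both also passed more genes in all than edgeR, limma-voom 6963 of them. All 3 PRELP-/- libraries were above WT for 2 of 9 members, Ccn1 and Wwtr1, where 14.5% of all genes were, and below WT for 0 of 9, where 15.8% were.

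The knockouts were also compared with each other, the OMD-/- libraries being those that chose the members, so differences of members are given here with intervals as a description and without p-values. Ccn1 was 18.9-fold higher in OMD-/- than in PRELP-/- by group means, and the lowest OMD-/- library was 8.45-fold above the highest PRELP-/- library. The log2 difference, PRELP-/- minus OMD-/-, was -4.24 (SE 0.39, 95% interval -5.17 to -3.30). Same-numbered libraries of the knockouts deviated together from their group means, and with the replicate number as a block the log2 difference was -4.15. It was -4.56 without OMD-/- replicate 1 and -4.08 with close libraries summed. The presence of Y chromosome reads (summed CPM above 10) as a covariate moved it most, to -3.26. Of the knockout libraries, only OMD-/- replicates 2 and 3 lay below that mark, so that value sets PRELP-/- against OMD-/- replicate 1 alone.

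For Ccn2 the log2 difference was -1.54 (SE 0.29, 95% interval -2.22 to -0.86), and for Amotl2 it was -1.44 (SE 0.55, 95% interval -2.74 to -0.14). With the Y chromosome covariate the differences were smaller, -0.79 for Ccn2 and -0.87 for Amotl2, and these values too rest on OMD-/- replicate 1 alone. The groups did not overlap for 5 of 9 members. Ccn1, Ccn2, Amotl1 and Amotl2 were lower in every PRELP-/- library, where 8.75% of all genes were, and Wwtr1 was higher in every PRELP-/- library, where 6.10% were. For the other 6 members the log2 differences were between -0.42 and 0.11. Of the 9 members 0 passed in edgeR, where 0.00633% of the 15805 genes tested passed, which is 1 gene, Prelp itself. In edgeR 3 members had an unadjusted p under 0.05, as did 713 of all genes tested. DESeq2 passed 2 members, and it passed more genes in all than edgeR, as given in the last section. With the replicate block 1 member and 43 genes passed, and without OMD-/- replicate 1 there were 2 members, Ccn1 and Ccn2, and 36 genes. With close libraries summed there were 0 members and 0 genes, and these member counts are no independent test either.

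**Figure D3:**
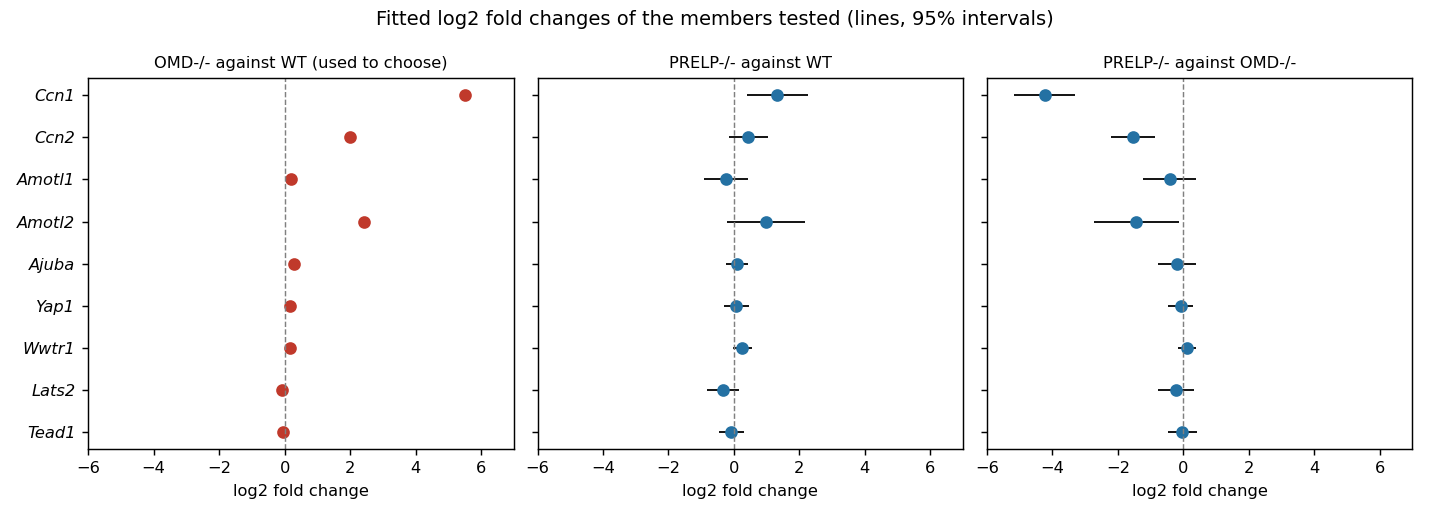
Fitted log2 fold changes of the 9 members tested in OMD-/- against WT (left, the comparison that chose the members, without intervals), PRELP-/- against WT (middle) and PRELP-/- against OMD-/- (right), with 95% intervals as lines. Ccn1 stands at 5.51, 1.32 and -4.24, and Yap1, Wwtr1, Lats2 and Tead1 lie within 0.34 of 0 in every panel.

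Other genes of the pathway were read from lists that leave the members out, and their counts stand beside the 29.4% of all genes that passed in OMD-/- and the 7.29% in PRELP-/- against WT. With close libraries summed, the lists had 0 calls in PRELP-/-, and in OMD-/- they had 1 for Hippo regulators, 2 for other targets, 1 for serum response factor and 0 each for TEAD and VGLL, the CCN family and the immediate early genes. Among 20 other Hippo regulators, 5 passed as higher and 5 as lower in OMD-/- than in WT, the median change of the list being -0.05 in log2, against 0.00 over all genes tested. Wwc1, which encodes the scaffold KIBRA that activates the LATS kinases, fell from 198 to 130 mean CPM (log2 change of -0.63, SE 0.08, adjusted p = 0.000477 in edgeR). Amot, the third angiomotin gene, rose by 0.74 (SE 0.14, adjusted p = 0.00367), and the atypical cadherin Dchs1 rose by 0.92 (SE 0.20, adjusted p = 0.00799). Without OMD-/- replicate 2, or without replicate 3, 6 of the 20 passed.

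In PRELP-/- against WT, 1 of the 20 Hippo regulators passed as higher and 1 as lower. Amot was 9.33, 11.2 and 9.08 CPM in PRELP-/- and 5.47 to 6.80 CPM in WT (log2 change of 0.70, SE 0.17, adjusted p = 0.0372 in edgeR). Rassf1, a scaffold of the kinases MST1 and MST2, was 5.36 to 5.54 CPM in PRELP-/- and 9.20 to 11.5 CPM in WT (log2 change of -1.01, SE 0.16, adjusted p = 0.00784 in edgeR). Neither group of libraries overlapped WT. Leaving out PRELP-/- replicate 1 raised the number that passed from 2 to 7, and leaving out any other single library lowered it to 1.

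Of the other TEAD factors and VGLL cofactors, which compete with or assist YAP on TEAD, 6 of 7 were tested. Tead4 was lower in OMD-/- (1.14 against 2.20 mean CPM, log2 change of -0.97, SE 0.27, adjusted p = 0.0208 in edgeR), and none of the others passed. Tead4 did not pass without OMD-/- replicate 1 or without replicate 2. In PRELP-/-, 0 of the 6 passed in edgeR and 1 had an unadjusted p under 0.05, Tead4 again being lower at 1.11 mean CPM (log2 change of -1.01, adjusted p = 0.0749), and DESeq2 passed 1.

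Among 17 other targets of YAP and TAZ, 3 passed as higher and 1 as lower in OMD-/- and the list had a median log2 change of 0.10. The receptor tyrosine kinase Axl was 156 to 191 CPM in WT and 331 to 341 CPM in OMD-/- (log2 change of 0.98, SE 0.09, adjusted p = 3.55e-05 in edgeR). F3, which encodes tissue factor, rose by 0.67 (SE 0.10, adjusted p = 0.000887), Ccdc80 by 0.65 (SE 0.16, adjusted p = 0.0113), and Ptpn14, a phosphatase that binds YAP, fell by 0.28 on the log2 scale (SE 0.08, adjusted p = 0.0255). The count was 7 without the library labelled WT replicate 1, 11 against WT replicates 3 and 4 alone and 2 without OMD-/- replicate 2 or without replicate 3.

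In PRELP-/-, 2 of these 17 targets passed, in opposite directions. Axl was 314 to 322 CPM, above every WT library (log2 change of 0.89, SE 0.13, adjusted p = 0.00590 in edgeR). Nt5e, the ecto-nucleotidase CD73, was 0.72 to 1.35 CPM in PRELP-/- and 2.88 to 7.63 CPM in WT (log2 change of -2.26, SE 0.45, adjusted p = 0.0210 in edgeR). The count was 1 without WT replicate 3, WT replicate 4 or PRELP-/- replicate 2. Between the knockouts 0 of the 17 passed in edgeR or in DESeq2, and 3 had an unadjusted p under 0.05, namely Nt5e, F3 and Ccdc80, each with a lower mean in PRELP-/-.

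Of the rest of the CCN family 3 genes were tested. Ccn4 rose in OMD-/- by 0.63 on the log2 scale (SE 0.18, adjusted p = 0.0245 in edgeR), from 5.65 to 9.90 CPM in WT to 11.7 to 11.9 CPM, and it did not pass without WT replicate 3, WT replicate 4 or any OMD-/- library. In PRELP-/-, 0 of 3 passed in edgeR or in DESeq2 and 0 had an unadjusted p under 0.05. Of 10 genes of serum response factor and its cytoskeletal targets, the actins Actg1 and Actb were higher in OMD-/- (log2 fold changes 0.57, SE 0.09, and 0.52, SE 0.10, adjusted p = 0.00156 and 0.00284). In PRELP-/- Actg1 passed at 0.77 (SE 0.19, adjusted p = 0.0441 in edgeR). Leaving out any library but PRELP-/- replicate 1 ended that call, and without replicate 1 the list had 4 genes that passed.

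Immediate early genes, which are switched on within minutes of a stimulus, were examined because Ccn1 and Ccn2 can belong to this response. Of 17, 9 passed as higher and 2 as lower, and the list had a median log2 change of 0.42. Egr1 was 3.20 to 6.98 CPM in WT and 9.12, 28.9 and 31.2 CPM in OMD-/- (log2 change of 2.19, SE 0.46, adjusted p = 0.0104 in edgeR), so that replicate 1 was again the lowest of the knockout. Klf2 was 11.5 to 19.0 CPM in WT and 20.4, 40.3 and 40.4 CPM in OMD-/- (log2 change of 1.20, SE 0.26, adjusted p = 0.00933 in edgeR). Klf6 rose by 0.49 (SE 0.12, adjusted p = 0.00996), whereas Btg2 fell by 0.37 on the log2 scale (SE 0.08, adjusted p = 0.00633). Fos itself did not pass, with 16.0 to 19.7 CPM in WT and 11.6, 18.3 and 14.8 CPM in OMD-/-. The count of 11 was 3 without OMD-/- replicate 2 or without replicate 3 and 6 without WT replicate 3 or without WT replicate 4, and it was 0 with close libraries summed. In PRELP-/- 0 of the 17 passed in edgeR, 2 had an unadjusted p under 0.05, and DESeq2 passed 1. Between the knockouts 0 genes of any of the 6 lists passed in edgeR. An unadjusted p under 0.05 was found there for 4 of the 10 genes of serum response factor and its targets, led by Cnn2 (log2 difference -0.73, SE 0.14) and Myl9 (-1.11, SE 0.22), and for 5 of the 17 immediate early genes, led by Klf2 (-0.94, SE 0.27) and Egr1 (-1.51, SE 0.46), each with a lower mean in PRELP-/-. DESeq2 passed 2 of the former and 0 of the latter.

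**Figure D4:**
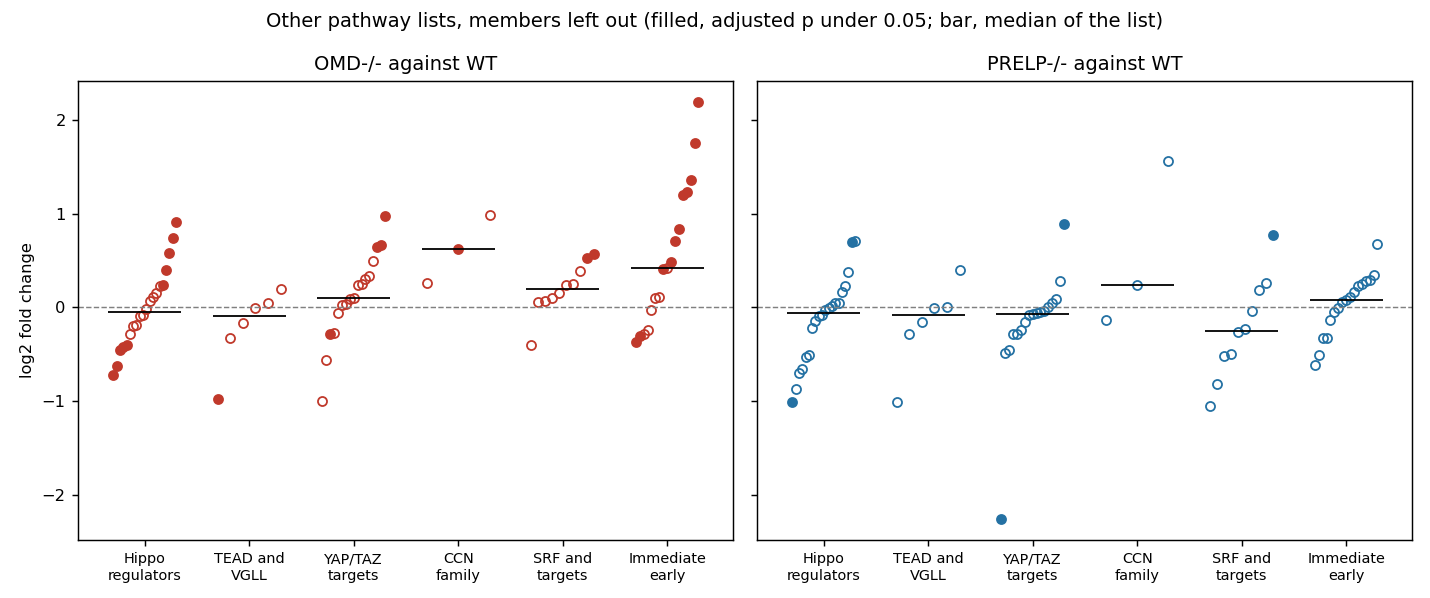
Log2 fold changes of the other genes of the pathway by list, for OMD-/- against WT (left) and PRELP-/- against WT (right), filled where the adjusted p was under 0.05, with the median of each list as a bar. The immediate early list has 11 filled points of 17 on the left and 0 on the right, and the list of other targets has 4 of 17 and 2 of 17.

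Markers of the cell types in the bladder moved with the groups too, and their part in the results was not tested. The 6 leukocyte markers summed to 570 to 632 CPM in WT, 490 to 848 CPM in PRELP-/- and 800, 1454 and 1488 CPM in OMD-/-, so OMD-/- replicate 1, which had the least Ccn1 of its group, also had the least of these. By the adjusted p in edgeR, 4 of 6 passed as higher in OMD-/-, against 14.3% of all genes. The B cell marker Cd79a had 3.10, 18.2 and 18.4 CPM there, where WT libraries had 0.44 to 1.11. Cd74 was the most abundant of the 6, and its mean rose from 321 to 828 CPM. The rises of Ptprc (log2 change 0.82) and Lyz2 (0.33) did not pass. For PRELP-/-, 4 of 6 fitted changes were positive and 2 negative, and 0 passed. Mean Cd74 was then 497 CPM, whereas Ptprc (12.1 against 18.0) and Lyz2 (132 against 213) had means below those of WT. The 7 fibroblast markers summed to 8068 to 9287 CPM in WT and 17692 to 21359 CPM in OMD-/-, where 4 of 7 passed as higher. These were the collagen genes Col1a1, Col1a2 and Col3a1, and Pdgfra. Mean CPM rose from 1968 to 5944 for Col1a1, from 2313 to 6327 for Col1a2 and from 1996 to 4664 for Col3a1. The log2 changes of Dcn (0.33), Lum (0.03) and Dpt (-0.66) did not pass, so the rise of the sum was not shared by all 7 markers. In PRELP-/- the 7 fibroblast markers summed to 9588 CPM in replicate 1 and 19199 and 19570 CPM in the others. There 2 of 7 passed as higher, against 1.40% of all genes. Mean CPM of Lum and Dpt was lower in PRELP-/- than in WT, at 70.8 against 91.6 and at 6.58 against 17.4. Fibroblast marker sums of PRELP-/- replicates 2 and 3 lay in the range of OMD-/-. Ccn1 was 4.13 and 5.17 CPM in these PRELP-/- libraries and 43.7 to 106 CPM in OMD-/-, and a link between the markers and Ccn1 was not tested.

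The 7 umbrella cell markers, which define the bladder surface, were detected in all libraries and summed to 9660 to 11424 CPM in WT, 12138 to 16489 CPM in OMD-/- and 13938 to 22959 CPM in PRELP-/-, the highest in PRELP-/- replicate 1. Smooth muscle markers summed to 336 to 1340 CPM in WT, 421 to 866 CPM in OMD-/- and 262 to 269 CPM in PRELP-/-. The 7 endothelial markers summed to 198 to 449 CPM in WT, 519 to 604 CPM in OMD-/- and 335 to 590 CPM in PRELP-/-. Nerve markers were at 6.46 to 13.0 CPM, skeletal muscle markers at 1.34 to 14.9 CPM, mesothelial and adipose markers at 1.01 CPM or less, and the 4 markers of male accessory glands at 0 in every library. The nuclear long non-coding RNAs Malat1, Neat1, Firre and Kcnq1ot1 summed to 1313 to 1577 CPM in WT, 298 to 361 CPM in OMD-/- and 193 to 256 CPM in PRELP-/-. In both knockouts 4 of 4 passed as lower than in WT, where 15.1% of all genes did so in OMD-/- and 5.89% in PRELP-/-. This list was chosen with earlier results of these data known, so the count is no test.

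In WT the libraries with Y chromosome reads had 2.86 and 2.18 CPM of Ccn1 and those without had 1.01 and 0.83. These pairs also differed in tissue markers. Endothelial markers summed to 438 and 449 CPM in WT replicates 1 and 2 and to 212 and 198 CPM in replicates 3 and 4. Smooth muscle markers went the other way, with 355 and 336 CPM against 1340 and 1182 CPM. The part of these differences in values given against either pair was not tested. In OMD-/- it was replicates 2 and 3, with the fewest such reads, that had 106 and 105 CPM. With the presence of Y chromosome reads (summed CPM above 10) as a covariate, the log2 fold change of Ccn1 in OMD-/- against WT was 5.38. It was 5.51 without the covariate. This mark does not separate the 18.4 CPM of OMD-/- replicate 1 from the 188 CPM of WT replicate 1, and the graded level was not fitted.

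**Figure D5:**
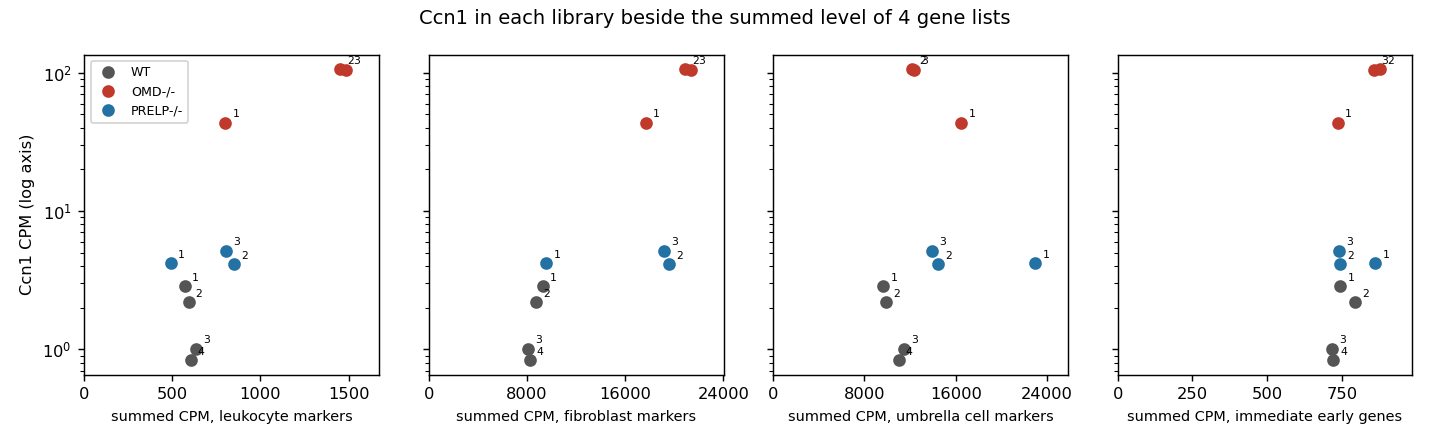
Ccn1 (CPM, log axis) in each of the 10 libraries beside the summed CPM of leukocyte markers, fibroblast markers, umbrella cell markers and immediate early genes, with replicate numbers. OMD-/- replicates 2 and 3 lie highest on the leukocyte axis, and on the immediate early axis, at 875 and 857 CPM, beside PRELP-/- replicate 1 at 860 CPM. The immediate early sum mixes directions, with 12 genes higher and 5 lower in OMD-/- than in WT. The abundant Junb and Btg2 were among the lower, with means of 133 and 124 CPM against 161 and 157 CPM in WT. Egr1 was at most 9.73 CPM in PRELP-/-, so a like sum does not mean like genes. PRELP-/- replicates 2 and 3 lie among OMD-/- on the fibroblast axis, with Ccn1 at 4.13 and 5.17 CPM. A link between Ccn1 and these sums was not tested.

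Genes with patterns most like those of the target genes were found by the root mean square difference of centred log2 CPM over the 10 libraries, among 14474 genes with a mean of at least 1 CPM. This likeness is a description, since the libraries share their groups. For Ccn1 the 5 nearest genes were the immunoglobulin segments Igkv5-39, Ighv1-72, Igkv4-72, Igkv6-20 and Ighv1-22, with differences of 0.69 to 1.04, where the SD of Ccn1 itself was 2.56. Their mean levels were 1.39 to 8.82 CPM, and reads of such segments are hard to assign because the family is large and its members are near copies. For Ccn2, whose SD was 0.96, they were Egr1 (0.30), AI506816 (0.33), Cyp26b1 (0.36), Laptm5 (0.36) and Klf2 (0.36). For Ankrd1, which had at most 6 reads in a library, the 5 nearest genes differed by 0.35 to 0.43 and no pattern can be read.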

How the data were processed

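By the labels, bladder RNA of 4 WT, 3 OMD-/- and 3 PRELP-/- mice was sequenced. It was prepared by poly(A) selection with a strand-marking kit whose adaptors carry molecular identifiers. The authors deposited whole-number read counts per gene for each library, without normalization. Headers of the files name HISAT2, and the submitters' processing notes list bcl2fastq, STAR 2.5.2b, featureCounts, DESeq2 and the builds GRCm38 and hg38. How strand and identifiers were handled in counting was not given in the sources used here. The deposited DESeq2 tables hold the authors' own comparisons and were not used.

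All 55536 gene identifiers matched GENCODE vM21 (GRCm38). The analysis was run in R 4.3.3, with edgeR 4.0.16 for the main fits and limma 3.58.1 and DESeq2 1.42.0 for alternatives. Each pair of groups was scaled by TMM, filtered (minimum count 10, minimum total 15) and fitted with edgeR's robust quasi-likelihood test, two-sided. Benjamini-Hochberg adjusted p-values were taken over every gene tested, with a threshold of 0.05. Levels are CPM over all 10 libraries, log2 CPM used a prior count of 2, and intervals are at 95%. The code was tested on simulated data. No source says whether mice were pooled, and p-values measure the spread between these libraries only.

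The members and lists were chosen with earlier results of these data known. Genes named beyond the members are at most the 4 with the smallest p of each list and comparison and the 5 most alike in pattern. Fos, Cd79a, Cd74, Ptprc, Lyz2, Dcn, Lum and Dpt were chosen after their values were seen. Alternatives were RLE factors, DESeq2, limma-voom with quality weights, no filter, a replicate block, 1 fit over all groups, a Y chromosome covariate (summed CPM above 10 or not) and each library left out. Summed close libraries, WT libraries with Y chromosome reads alone and WT libraries with Omd reads alone were added after seeing the data, as were other scalings of CPM. Deviations of same-numbered libraries from the group means correlated at 0.30, 0.18 and 0.14 between the knockouts. The correlations were 0.039, -0.035 and 0.024 between OMD-/- and WT and -0.059, 0.13 and -0.10 between PRELP-/- and WT. The main fits were unpaired in every comparison, and the replicate block was an alternative only.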

Additional observations from a re-analysis of the deposited data

Results flagged for a closer look

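The level of Lats2 in WT replicate 3 lay apart from the other WT libraries. It was 12.8 CPM against 19.0 to 20.1 CPM in the other 3, and its gap to the nearest of them was 0.855 of the range of the group, past Dixon's critical value for 4 samples. Such a value arises by chance in about 1 of 20 groups. Lats2 had 13.0 CPM in OMD-/- replicate 1 and 11.1 CPM in PRELP-/- replicate 1, so values as low occurred in each group.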

How the results depend on the processing

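Across the alternatives, 414 of 432 fitted log2 fold changes of members kept the sign reported and 18 took the other sign, all of them in Amotl1, Ajuba, Yap1, Lats2 or Tead1, whose changes were small. Counts of calls depended more on the setting. In OMD-/- against WT, 4899 genes became 2485 in a fit over all groups and 1658 with close libraries summed, and leaving out a library gave 2951 to 4850, the lowest without OMD-/- replicate 3 (3128 without replicate 2). The 3 members became 7 with limma-voom, 0 with summed libraries, 6 against WT replicates 3 and 4 alone and 3 to 4 with a library left out. In PRELP-/- against WT, 1209 genes became 2547 with DESeq2, 6963 with limma-voom, 2485 in a fit over all groups, 536 with the Y chromosome covariate, 13 with summed libraries and 119 against the libraries labelled WT replicates 1 and 2 alone and 453 against WT replicates 3 and 4 alone. Leaving out a library gave 475 (without PRELP-/- replicate 2) to 3807 (without PRELP-/- replicate 1), and the 0 members became 1 with DESeq2, 6 with limma-voom, 1 against WT replicates 3 and 4 alone and 0 to 1 with a library left out. The share of calls that were higher, 19.2% as reported, was 36.7% with DESeq2, 48.7% with limma-voom, 39.3% in a fit over all groups and 48.2% without PRELP-/- replicate 1, and 11.7% against WT replicates 3 and 4 alone. In PRELP-/- against OMD-/-, 1 gene became 88 with DESeq2, 1010 with limma-voom, 5 without the filter and 3 in a fit over all groups. The number was 0 with summed libraries and 1 to 36 with a library left out. The 0 members became 2 with DESeq2, 3 with limma-voom, 1 without the filter, 1 in a fit over all groups and 0 to 2 with a library left out. The covariate fit of this comparison rests on OMD-/- replicate 1 alone in its group, so its calls are not counted here. With the replicate block, 3516 genes and 2 members passed in OMD-/- against WT, 115 genes and 0 members in PRELP-/- against WT, and 43 genes and 1 member between the knockouts. In the first 2 comparisons the libraries share only a number. The fits with fewer libraries or summed libraries have fewer samples, and for the other settings the cause was not tested. At this depth Ankrd1 could not be compared between groups.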
